A study of Caenorhabditis elegans with 4 samples.

Results

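The DNA damage checkpoint genes described here are 10 genes of *C. elegans*, among the 15286 genes of the deposited table, whose names equal a fixed list: the damage kinases *atm-1* and *atl-1*, the clamp subunits *hus-1*, *mrt-2* and *hpr-9*, the clamp loader *hpr-17*, the regulator *clk-2*, the effector kinase *chk-1*, and *brc-1* and *brd-1*, the worm homologs of BRCA1 and BARD1. All 10 were found and all 10 passed the only filter on low values, at least 1 count over the 4 libraries, which left 15261 genes. They were chosen by name and function. Polyadenylated RNA was measured by RNA-seq in dissected adult gonads. The H3.3K27M gonads came from strain FAS58, with the lysine 27 to methionine change edited into the endogenous H3.3 gene *his-72* (genotype *his-72*(uge40[K27M]) III), and the wild-type gonads came from strain N2, with 2 libraries per strain and worms grown at 25 °C in both. The mutant is a single edited allele carried by the whole worm, and the study describes endomitotic oocytes in its gonads, so the mix of germ cells need not be the same in both strains. In bulk tissue, fewer cells of a type and less RNA per cell cannot be told apart. The titles of the H3.3K27M samples carry another strain number, FAS43, and the extraction text of the labels speaks of embryos and larvae at 20 °C. The strain and genotype labels, the growth text and the study's methods gave the groups used here.

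The DNA damage checkpoint stops the cell cycle, starts repair or triggers cell death when DNA is broken or replication stalls. ATM-1 responds mainly to DNA breaks, and ATL-1, the worm ATR, to stalled forks and exposed single-stranded DNA. A ring-shaped clamp of HPR-9, MRT-2 and HUS-1 is placed at the damage by the loader HPR-17 and helps to activate ATL-1, which in turn acts through CHK-1. In the worm germ line the pathway is best known for arresting mitotic germ cells at the distal end and for p53-dependent death of late pachytene germ cells. The study stained the repair protein RAD-51, found many foci of it in endomitotic oocytes and took them as a sign of extensive DNA damage. The question for these libraries is whether the transcripts of the checkpoint differ with the mutation. Protein levels and protein activity were not measured in them.

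No checkpoint gene passed the test. A gene was called where the quasi-likelihood test of edgeR gave it an adjusted *p* (Benjamini-Hochberg, over all 15261 genes) below 0.05 with more than a 2-fold change. By this rule 0 of the 10 were called higher and 0 lower in H3.3K27M gonads, where 4.43% of all tested genes were called higher and 1.46% lower. DESeq2 and the classic exact test of edgeR also called 0 of the 10. At an unadjusted *p* under 0.05 there were 2, *hus-1* and *clk-2*, both lower, where 24.7% of all tested genes reached that level. The log2 fold changes of the 10 genes lay between -0.73 and 0.20 with a median of -0.014, beside a median of -0.11 over all tested genes, and 5 were above 0 and 5 below. The whole 95% interval of the fold change stayed within 2-fold in either direction for 7 of the 10 genes, and for 27% of all tested genes. The exceptions were *hus-1*, *mrt-2* and *clk-2*. Standard errors had a median of 0.20 on the log2 scale for the 10 genes and 0.59 over all tested genes, many of which have few reads. The 10 genes had between 148 and 11842 counts per library, well above the 3 counts taken as the detection floor.

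**Figure D1:**
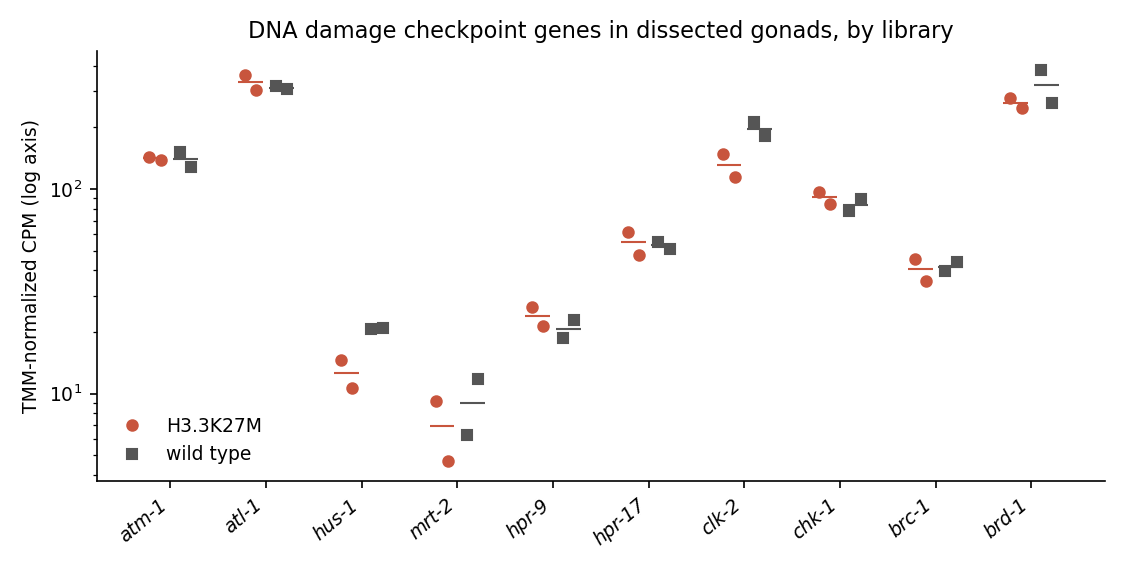
Level of each checkpoint gene in each library, as TMM-normalized CPM (counts scaled to the size and composition of the library) on a log axis. Red circles are the 2 H3.3K27M libraries and grey squares the 2 wild-type libraries, with the mean of each strain as a line. The strains overlap for all genes except *hus-1* and *clk-2*, whose H3.3K27M libraries both lie below the wild-type libraries.

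Facts on the libraries as a whole bear on these values. Total counts ran from 28298609 to 32957429, and the levels below are TMM-normalized CPM, that is, counts scaled to the size of the library and corrected for its composition. Nothing in the labels says how many worms or separate cultures stand behind a replicate, although the methods call them biological, so *p*-values measure the spread between these libraries. The 9 germline markers summed to 5050 and 4319 CPM in H3.3K27M gonads and 5679 and 4661 CPM in wild-type gonads, with 0 called, so the defining transcripts of the labelled tissue were present in every library. The 8 oocyte markers summed to 21989 and 17116 CPM in H3.3K27M gonads and 29189 and 23261 CPM in wild-type gonads, lower in both H3.3K27M libraries, with 0 called. The 8 intestine markers summed to 30.7 and 32.8 CPM in H3.3K27M libraries against 277 and 2781 CPM in wild-type libraries 1 and 2, with 3 called lower. The 7 sperm markers tested summed to 7.90 and 17.98 CPM in H3.3K27M gonads and 4.51 and 3.14 CPM in wild-type gonads. Neuron markers summed to 35.4 and 45.7 CPM in H3.3K27M and 14.1 and 11.05 CPM in wild-type gonads, with 1 of 7 called higher. *his-72* itself had 50.3 and 60.4 CPM in H3.3K27M gonads and 64.2 and 81.8 CPM in wild-type gonads. A count per gene does not show its point mutation, so it does not check the labels.

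Neither damage kinase differed between the strains by more than the spread of the libraries. *atm-1*, the worm ATM, had 142.9 and 139.5 CPM in H3.3K27M gonads and 151.3 and 128.5 CPM in wild-type gonads. The H3.3K27M values lay between the wild-type ones. Its log2 fold change was 0.013 (SE 0.17, 95% interval -0.41 to 0.44, edgeR adjusted *p* = 0.968). *atl-1*, the worm ATR, which germ cells need for normal chromosome replication, was the more abundant kinase, with 362.6 and 305.3 CPM in H3.3K27M gonads and 317.4 and 309.5 CPM in wild-type gonads. The strains overlapped, and the log2 fold change was 0.092 (SE 0.18, interval -0.35 to 0.53, edgeR adjusted *p* = 0.777). Per kilobase of exon, the *atm-1* level was 0.404 and 0.468 of the *atl-1* level in H3.3K27M libraries, and 0.489 and 0.425 of it in wild-type libraries, so the balance between the kinases also overlapped between strains.

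None of the 3 clamp subunit genes passed the test, and their fold changes differed in sign. *hus-1* had the lowest fold of the 10 genes. It had 474 and 339 counts, or 14.5 and 10.7 CPM, in H3.3K27M gonads and 608 and 601 counts, or 20.8 and 20.9 CPM, in wild-type gonads. Both H3.3K27M libraries were below both wild-type libraries. Its mean was 12.6 ± 2.72 CPM in H3.3K27M and 20.9 ± 0.139 CPM in wild-type gonads (SD, n = 2 each), a log2 fold change of -0.73 (SE 0.24, interval -1.303 to -0.15), or 0.604-fold, and an edgeR adjusted *p* of 0.140. The difference did not pass the adjustment over all genes, and by its *p* the gene ranked 2316 among them. When single libraries were dropped, its log2 fold change lay between -0.91 and -0.52, and the adjusted *p* over all alternatives between 0.103 and 0.482. Without wild-type library 2, the library with the 2781 CPM of intestine markers, it was -0.72. The part of intestine or oocyte transcripts in this difference was not tested.

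*hpr-9*, the RAD9 subunit, had 26.6 and 21.3 CPM in H3.3K27M gonads and 18.7 and 22.9 CPM in wild-type gonads. These ranges overlap, with a log2 fold change of 0.20 (SE 0.23, interval -0.34 to 0.75, edgeR adjusted *p* = 0.597). *mrt-2*, the RAD1 subunit, known in the worm for keeping telomeres from shortening over generations, was the least abundant and the least certain of the 10 genes. It had 300 and 148 counts, or 9.19 and 4.66 CPM, in H3.3K27M gonads and 184 and 338 counts, or 6.28 and 11.8 CPM, in wild-type gonads. The libraries of 1 strain differed by 1.97-fold in H3.3K27M and by 1.88-fold in wild-type gonads, more than the strains did. The log2 fold change of -0.38 (SE 0.45, interval -1.47 to 0.71, edgeR adjusted *p* = 0.624) has an interval that holds both higher and lower levels. It was 0.025 without H3.3K27M library 2 and 0.14 without wild-type library 2, so its sign rests on those libraries. Set against each other per kilobase of exon, *hus-1* was at 1.03 and 0.944 times the level of *hpr-9* in H3.3K27M libraries, and at 2.09 and 1.73 times in wild-type libraries. Among the other ratios computed between checkpoint genes, that of *clk-2* to *atl-1* also did not overlap between strains. It was 1.13 and 1.03 in H3.3K27M libraries, and 1.86 and 1.62 in wild-type libraries. Both *hus-1* and *clk-2* were themselves lower in both H3.3K27M libraries. These ratios were singled out after their values were seen. With 2 libraries against 2 an exact two-sided permutation test cannot give a *p* under 0.333.

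*hpr-17*, whose protein is the RAD17 subunit of the clamp loader, had 61.9 and 47.7 CPM in H3.3K27M gonads and 55.2 and 51.2 CPM in wild-type gonads. The wild-type values lay between the H3.3K27M ones, and the log2 fold change was 0.044 (SE 0.20, interval -0.44 to 0.53, edgeR adjusted *p* = 0.910).

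**Figure D2:**
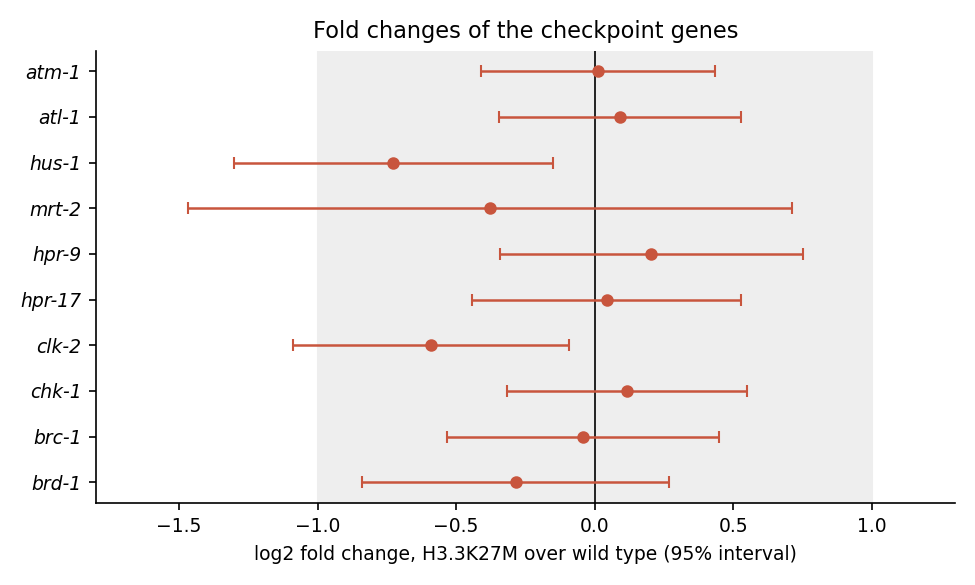
Log2 fold change of each checkpoint gene, H3.3K27M over wild type, with its 95% interval from the edgeR quasi-likelihood fit (n = 2 libraries per strain). The grey band marks changes of less than 2-fold, and 7 of the 10 intervals lie wholly inside it, while those of *hus-1*, *mrt-2* and *clk-2* reach below it.

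*clk-2* encodes the worm TEL2, a protein that other organisms need for stable ATM and ATR kinases and that the worm germ line needs for the checkpoint. It had 4840 and 3618 counts, or 148.2 and 113.9 CPM, in H3.3K27M gonads and 6260 and 5193 counts, or 213.7 and 181.0 CPM, in wild-type gonads. Both H3.3K27M libraries were again below both wild-type libraries. The mean was 131.1 ± 24.3 CPM in H3.3K27M gonads and 197.3 ± 23.1 CPM in wild-type gonads (SD, n = 2 each). The log2 fold change was -0.59 (SE 0.21, interval -1.09 to -0.092), or 0.664-fold, with an edgeR adjusted *p* of 0.155, which missed the threshold. Over the alternatives the adjusted *p* lay between 0.0911, with DESeq2, and 0.457, and dropping single libraries gave log2 fold changes between -0.74 and -0.41. For *hus-1* and *clk-2* alike, being lower in both H3.3K27M libraries is common in these data. Of all tested genes, 32.7% were lower in both H3.3K27M libraries than in both wild-type libraries and 24.1% were higher in both, against 2 and 0 of the 10 checkpoint genes.

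*chk-1*, the effector kinase that ATL-1 activates, had 97.0 and 85.0 CPM in H3.3K27M gonads and 78.4 and 89.3 CPM in wild-type gonads. The strains overlapped, with a log2 fold change of 0.12 (SE 0.18, interval -0.32 to 0.55, edgeR adjusted *p* = 0.706).

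BRC-1 and BRD-1 pair to form a ubiquitin ligase that acts in the repair of DNA breaks, also in meiosis. *brc-1* had 45.5 and 35.6 CPM in H3.3K27M gonads and 39.6 and 44.0 CPM in wild-type gonads, a log2 fold change of -0.042 (SE 0.20, interval -0.53 to 0.45, edgeR adjusted *p* = 0.914). Its H3.3K27M values enclosed the wild-type ones. *brd-1* had 277.2 and 250.3 CPM in H3.3K27M gonads and 380.7 and 262.3 CPM in wild-type gonads. Wild-type library 1 stood above the other libraries, and without it the log2 fold change of -0.29 (SE 0.23, interval -0.84 to 0.27, edgeR adjusted *p* = 0.468) became 0.041. Although the proteins act as a pair, their transcripts were far apart in level. Per kilobase of exon, *brc-1* was at 0.181 and 0.157 of the *brd-1* level in H3.3K27M libraries and at 0.115 and 0.185 of it in wild-type libraries.

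**Figure D3:**
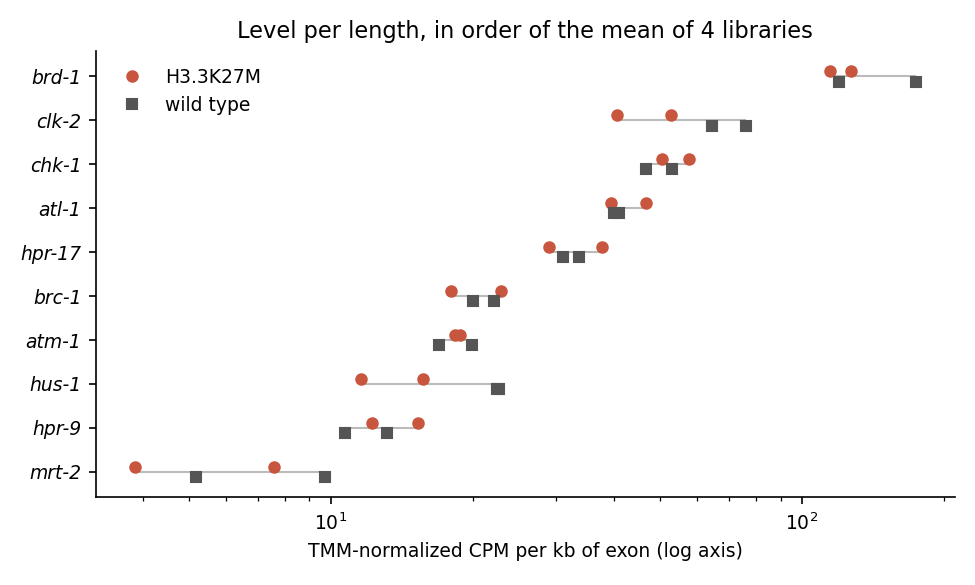
Level of each checkpoint gene per kilobase of exon in each library, on a log axis, in the order of the mean over the 4 libraries. Red circles are H3.3K27M and grey squares wild-type libraries, and the line spans all 4. *brd-1* is highest and *mrt-2* lowest in every library.

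Divided by the length of their exons, the 10 genes spanned a wide range, with *brd-1* at a mean of 133.9 CPM per kilobase over the 4 libraries and *mrt-2* at 6.59. The order between them was *clk-2* at 58.5, *chk-1* at 51.9, *atl-1* at 41.7, *hpr-17* at 32.9, *brc-1* at 20.8, *atm-1* at 18.5, *hus-1* at 18.1 and *hpr-9* at 12.9 CPM per kilobase. *brd-1* and *clk-2*, *atl-1* and *hpr-17*, *hpr-17* and *brc-1*, and *hpr-9* and *mrt-2* were neighbours in this order whose ranges over the 4 libraries did not overlap. The ranges of the other neighbours overlapped. *clk-2* was above *chk-1* in 2 of the 4 libraries, and *atm-1* above *hus-1* in 2 of the 4. The first held in the wild-type libraries and the second in the H3.3K27M libraries. In wild-type gonads the 10 genes lay between the 63.6th percentile (*mrt-2*) and the 95.5th percentile (*brd-1*) of all tested genes by level per kilobase. The clamp subunits, at the low end, thus stood below the kinase *atl-1* and the loader *hpr-17* in every library.

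The genes lie on autosomes, in WBcel235, with 5 on chromosome III, 2 each on chromosomes I and V, and 1 on chromosome II. None is on chromosome X, where the median over 1979 tested genes was -1.06 on the log2 scale. Chromosomes I, II and III had medians of 0.022, -0.0074 and 0.024, and chromosome V one of -0.37. *hus-1* spans chromosome I from 3698102 to 3699300 on the plus strand in 1 transcript, and 0 annotated genes overlap it. Its nearest protein-coding neighbour, the mismatch repair gene *msh-2*, starts 550 bases away in the opposite direction and had a log2 fold change of 0.064 (SE 0.19). On the other side F21A9.2, 6729 bases away, was called higher, with 996 and 1000 counts in H3.3K27M gonads and 66 and 22 counts in wild-type gonads, a log2 fold change of 4.35 (SE 0.40, edgeR adjusted *p* = 0.00420). Dropping any 1 library kept it between 3.78 and 5.36 but raised the edgeR adjusted *p* to between 0.0587 and 0.158.

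*clk-2* has a neighbour that changed far more than any checkpoint gene. It spans chromosome III from 7515222 to 7518524, on the minus strand, and its last 64 exon bases, 2.28% of its exon length, also belong to *cls-1*, which runs towards it on the plus strand from 7508178 to 7515285. *cls-1* encodes a protein of the CLASP family of microtubule regulators. It had 2368 and 2830 counts, or 72.5 and 89.1 CPM, in H3.3K27M gonads and 157 and 140 counts, or 5.36 and 4.88 CPM, in wild-type gonads. The strains were far apart and the libraries of each were close. The log2 fold change was 3.98 (SE 0.23, edgeR adjusted *p* = 0.00154), and it lay between 3.82 and 4.17 when single libraries were dropped. The edgeR adjusted *p* then lay between 0.0251 and 0.140, and without H3.3K27M library 1 or wild-type library 2 the test called 0 genes of the whole table. *cls-1* was thus called higher, while the lower level of *clk-2* was not called. Whether the reads of *cls-1* touch the count of *clk-2* was not tested. The library kit keeps strand, but the counting mode with respect to strand is not given in the sources used here, and reads in the shared bases could be lost or credited to either gene. The next gene on the other side of *clk-2*, *cux-7*, 103 bases away on the same strand, had a log2 fold change of -0.23 (SE 0.21).

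**Figure D4:**
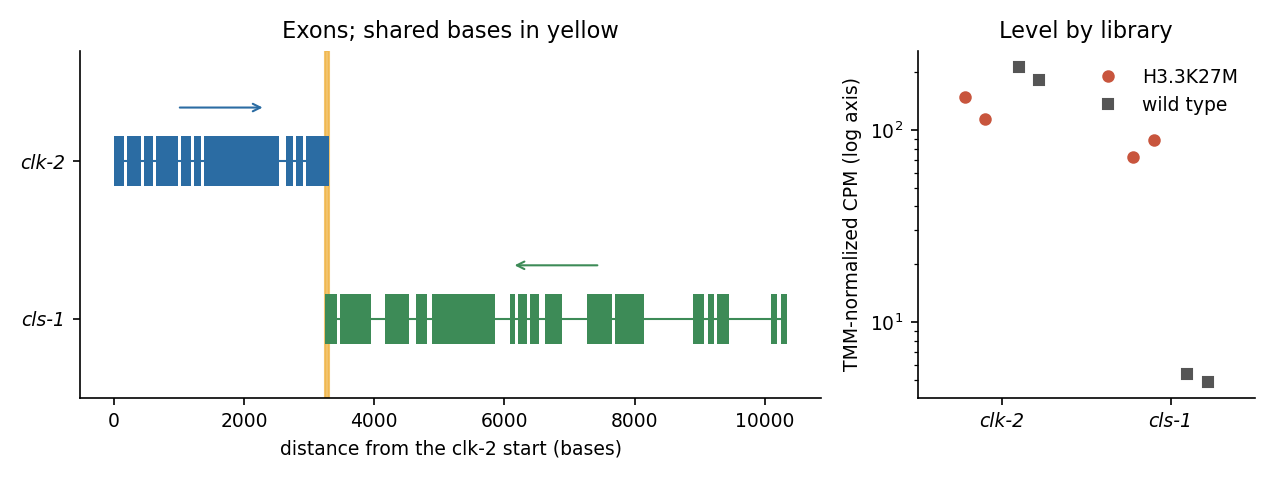
Left, exons of *clk-2* and *cls-1* along the genome as distance in bases from the annotated start of *clk-2*, with arrows for the direction of transcription and the 64 shared exon bases in yellow. Right, level of both genes in each library in TMM-normalized CPM on a log axis, where *cls-1* is higher in both H3.3K27M libraries (red) and *clk-2* is higher in both wild-type libraries (grey).

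*hpr-9* is the other checkpoint gene with a protein-coding overlap, 133 of its 1736 exon bases shared with *swt-4* on the opposite strand. How reads in these shared bases were counted is not known either, and the effect on the *hpr-9* level and its ratios was not tested. *swt-4* had 49.7 and 47.0 CPM in H3.3K27M gonads and 60.3 and 47.3 CPM in wild-type gonads, a log2 fold change of -0.15 (SE 0.20). Transfer RNA genes, noncoding RNA genes and pseudogenes lie within introns of *atm-1*, *hpr-9*, *brc-1* and *brd-1* and share 0 exon bases with them.

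Beyond the 10 genes, 63 genes of the same pathway were described from 5 lists by function, all of which were tested. The main test called 0 of them higher and 2 lower, DESeq2 called 3, and 9 had an unadjusted *p* under 0.05, where over all tested genes 4.43% were called higher, 1.46% lower and 24.7% reached that unadjusted level. The 11 genes listed for clamp loading and fork sensing include *rfc-1* to *rfc-4* and the adaptor *mus-101* (TopBP1). Their median was -0.076 on the log2 scale, with 0 called and 1 at an unadjusted *p* under 0.05. Of their 11 intervals, 10 stayed within 2-fold. The 5 genes of other kinases of the ATM family and of their assembly had a median of -0.091, with 0 called and 0 at an unadjusted *p* under 0.05. Both ATPase genes of that assembly were lower in both H3.3K27M libraries than in both wild-type libraries, as were 32.7% of all tested genes. The log2 fold change was -0.53 (SE 0.23) for *ruvb-2* and -0.36 (SE 0.21) for *ruvb-1*, and neither passed the test.

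Both calls fell in a list of 12 genes, which holds *chk-2* beside genes of the cell cycle steps that the checkpoint acts on. The median log2 fold change of this list was -0.51. Of these 12 genes, 6 had an unadjusted *p* under 0.05, where 24.7% of all tested genes did. As to single libraries, 7 of the 12 were lower in both H3.3K27M libraries than in both wild-type libraries and 2 were higher in both. Over all tested genes, 32.7% were lower in both and 24.1% were higher in both. *chk-2* belongs to the checkpoint kinase family but in the worm acts mainly in meiosis, where chromosome pairing and break formation need it. It had 408 and 256 counts, or 12.5 and 8.06 CPM, in H3.3K27M gonads and 811 and 672 counts, or 27.7 and 23.4 CPM, in wild-type gonads, and its log2 fold change was -1.31 (SE 0.28, edgeR adjusted *p* = 0.0476). *cdc-25.2*, a phosphatase that activates CDK-1 in oocytes, had 7.69 and 3.12 CPM in H3.3K27M gonads and 20.5 and 20.5 CPM in wild-type gonads, a log2 fold change of -1.92 (SE 0.40, edgeR adjusted *p* = 0.0465). Neither was called with RLE normalization, where the edgeR adjusted *p* was 0.0603 for *chk-2* and 0.0587 for *cdc-25.2*, or when any 1 of the 4 libraries was dropped. The other 4 genes at an unadjusted *p* under 0.05 were not called. *cdc-25.3*, another phosphatase gene of this family, had 20.4 and 15.4 CPM in H3.3K27M gonads and 36.1 and 29.2 CPM in wild-type gonads, a log2 fold change of -0.87 (SE 0.23). *cki-2*, which encodes an inhibitor of cyclin-dependent kinases, had 101.1 and 88.2 CPM in H3.3K27M gonads and 164.2 and 132.7 CPM in wild-type gonads, a log2 fold change of -0.65 (SE 0.19). Both were lower in both H3.3K27M libraries. *wee-1.1* was close to the detection floor, with 3 and 1 counts in H3.3K27M gonads and 12 and 18 counts in wild-type gonads. The inhibitory kinase gene *wee-1.3* was higher in both H3.3K27M libraries, with 312.8 and 308.5 CPM against 227.0 and 229.4 CPM in wild-type gonads, a log2 fold change of 0.44 (SE 0.17, edgeR adjusted *p* = 0.170).

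**Figure D5:**
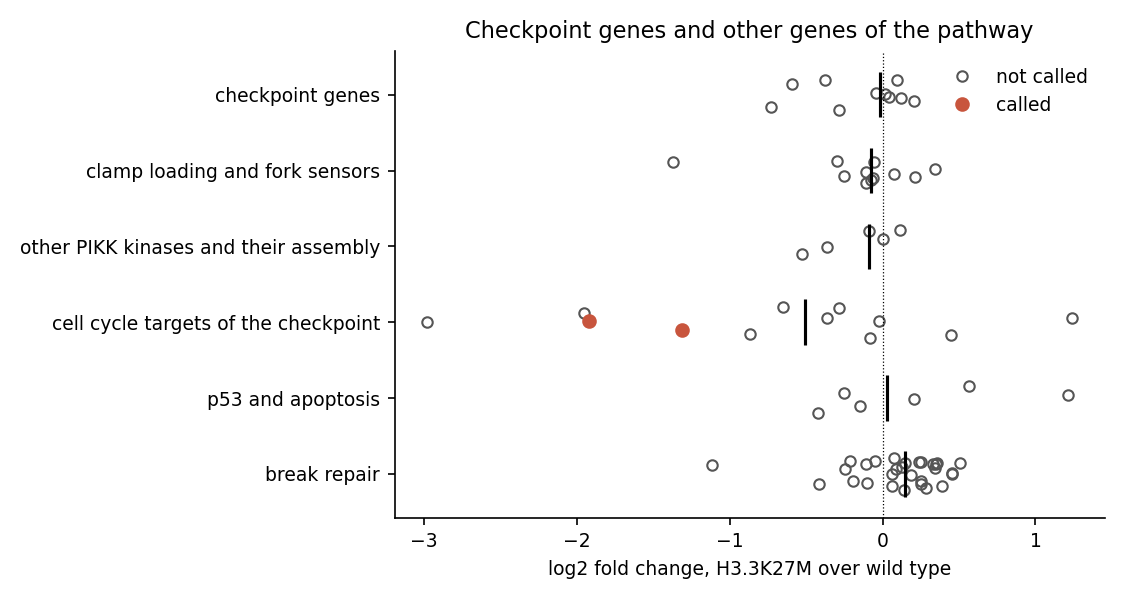
Log2 fold change, H3.3K27M over wild type, of the 10 checkpoint genes and of 63 other pathway genes in 5 lists. Each circle is a gene, filled where called, with the median of each list as a vertical line and points spread vertically for legibility. The 2 filled circles, *cdc-25.2* and *chk-2*, lie in the list headed cell cycle targets, although *chk-2* acts mainly in meiosis.

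Neither the p53 gene nor its death-promoting targets passed the test. *cep-1*, the worm p53, had 99.7 and 94.3 CPM in H3.3K27M gonads and 83.4 and 84.6 CPM in wild-type gonads, a log2 fold change of 0.21 (SE 0.16, edgeR adjusted *p* = 0.459). *egl-1*, a death-promoting gene that CEP-1 switches on after damage, had 172 and 428 counts, or 5.27 and 13.5 CPM, in H3.3K27M gonads and 237 and 130 counts, or 8.09 and 4.53 CPM, in wild-type gonads. The high value came from H3.3K27M library 2 alone. Its log2 fold change of 0.57 (SE 0.52, edgeR adjusted *p* = 0.522) was -0.26 without that library. *ced-13*, the other such gene, had 2 and 42 counts in H3.3K27M gonads and 7 and 10 counts in wild-type gonads, again with its high value in H3.3K27M library 2.

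Of the 29 break repair genes, 0 were called, where 4.43% of all tested genes were called higher and 1.46% lower. An unadjusted *p* under 0.05 was reached by 2 of the 29, where 24.7% of all tested genes reached that level. The interval lay within 2-fold for 28 of the 29 and for 27% of all tested genes, many of which have few reads. Their median log2 fold change was 0.15, with 21 above 0, as were 6709 of the 15261 tested genes, and 17 of the 29 were higher in both H3.3K27M libraries than in both wild-type libraries, where 24.1% of all tested genes were. Another 4 of the 29 were lower in both, where 32.7% of all tested genes were. The change farthest from 0 in this list was that of *rfs-1*, a RAD-51 paralog gene, with 64 and 39 counts in H3.3K27M gonads and 90 and 111 counts in wild-type gonads, a log2 fold change of -1.12 (SE 0.47) that did not pass the test. *rad-51*, the recombinase that coats broken DNA ends, had 108.9 and 89.9 CPM in H3.3K27M gonads and 66.7 and 78.1 CPM in wild-type gonads. The H3.3K27M libraries were the higher ones, with a log2 fold change of 0.46 (SE 0.19, interval -0.0076 to 0.92, edgeR adjusted *p* = 0.207). *rad-50*, of the complex that binds DNA ends, had 341.9 and 398.4 CPM in H3.3K27M gonads and 275.3 and 245.7 CPM in wild-type gonads, a log2 fold change of 0.51 (SE 0.18, edgeR adjusted *p* = 0.165). For *mre-11*, of the same complex, the log2 fold change was 0.13 (SE 0.17, edgeR adjusted *p* = 0.653). Set beside them, *brc-1* and *brd-1* had log2 fold changes of -0.042 and -0.29.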

How the data were processed

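Reads of 50 bases were mapped by the authors to WBcel235 with TopHat2 2.0.13, and the submitters' processing notes also name HTSeq 0.6.1 and edgeR 3.10.5. How strand and reads matching several genes were handled is not given in the sources used here. Raw counts for each gene, as deposited, were the only values analysed. The deposited table also holds normalized counts (a signal scaled per library) and the authors' own comparison, as log2 fold changes, average log2 CPM and p-values, none of them used.

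The 15261 genes with at least 1 count entered 1 fit of strain (TMM, then glmQLFit and glmQLFTest of edgeR 4.0.16 in R 4.3.3), and the threshold followed the study's methods. Standard errors were derived from F, and 95% intervals from the t quantile at the total degrees of freedom. Gene positions and exon lengths (union over transcripts) were read from the annotation of WBcel235 in Ensembl release 115, where 15159 of the 15286 genes were found. Scripts were tested on simulated data. The floor of 3 counts covers counting error only.

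The 10 genes and the lists were chosen with earlier results of these data known. By rule the text names the 10 genes, called genes of the 5 pathway lists, *rad-51*, *cep-1*, *egl-1*, protein-coding genes that overlap one of the 10, and *his-72*. Outside the rule, and chosen after their values were seen, are *msh-2*, F21A9.2, *cux-7*, *ruvb-1*, *ruvb-2*, *cdc-25.3*, *cki-2*, *wee-1.1*, *wee-1.3*, *ced-13*, *rfs-1*, *rad-50* and *mre-11*. Also outside the rule are *rfc-1* to *rfc-4* and *mus-101*, named only as examples of their list. Alternatives were RLE normalization, DESeq2 1.42.0, filterByExpr, legacy quasi-likelihood, the classic exact test, the replicate number as a block, calls by adjusted p without the fold limit, another gene length, and dropping each library.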

Additional observations from a re-analysis of the deposited data

How the results depend on the processing

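None of the 10 checkpoint genes was called in any of the 12 alternatives, and 2 had an unadjusted *p* under 0.05, a level added after seeing the data. Between 5 and 7 of the 10 intervals stayed within 2-fold, and the median level per kilobase was 26.8 with the main gene length and 26.9 with the longest transcript. The genes called over the whole table, 899 of 15261, numbered 1750 with DESeq2 (1228 higher, 522 lower), 1518 with the classic exact test (1046 and 472), 463 with a replicate block (372 and 91) and between 0 and 118 with 1 library left out, where fewer samples enter and the lone library is assumed to vary like the other strain. The 2 pathway genes called, *chk-2* and *cdc-25.2*, became 0 with RLE normalization, 0 with the replicate block and 0 without any 1 library (the cause was not tested), and 9 pathway genes had an unadjusted *p* under 0.05. The replicate numbers share only a number: the replicate differences of the strains correlated at -0.135 over 9237 genes, and with crossed numbers, an alternative added for this, 856 genes in all, 0 checkpoint genes and 0 pathway genes were called.

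The sign of small log2 fold changes turned with 1 library left out. The values then lay between -0.10 and 0.17 for *atm-1*, between -0.90 and 0.14 for *mrt-2*, between -0.11 and 0.22 for *hpr-17*, between -0.18 and 0.12 for *brc-1* and between -0.53 and 0.041 for *brd-1*. The signs of the other 5 checkpoint genes held in all 10 alternatives with a fold change. With 148 counts or more in every library, these genes were well above the detection floor, and the precision is limited by having 2 libraries per strain.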
